A study of Mus musculus with 122 samples.

Results

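The genes described here make or run the degradative lumen of the lysosome: soluble hydrolases and their activators, the proteins that move cholesterol out of the organelle, its major membrane proteins, the transcription factors of the TFEB family and the subunits of the vacuolar proton pump (V-ATPase). They were chosen by name, 31 genes from a list and every gene whose symbol begins with Atp6v0, Atp6v1 or Atp6ap, which gave 56 genes among the 22050 in the count tables; no measured value entered the choice, and cathepsins were not included. The study compared mouse alveolar macrophages lacking the transcription factor C/EBPβ, or carrying an altered form of it, with their controls, by 3′ RNA sequencing of polyadenylated transcripts, chromatin accessibility and C/EBPβ chromatin immunoprecipitation. Its labels place the purpose in lipid metabolism and the C/EBPβ-dependent program of these cells. In all, 99 RNA libraries in 31 groups were deposited as gene counts.

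Macrophages from bronchoalveolar lavage of adult mice of the germline C/EBPb tm1Pfj strain (mixed background) formed 4 wild-type libraries, 4 knockout libraries of CD11b-low cells and 4 of CD11b-high cells, and both knockout groups share the same wild-type libraries. Females of this strain came from facility 1 (2 wild-type, 3 heterozygous and 2 knockout libraries) and facility 2 (3 wild-type and 2 knockout), and males gave 2 wild-type and 2 knockout libraries. A further set was sequenced as RNA partner of accessibility samples and is called the chromatin-matched set (3 wild-type and 3 knockout, and for the Lip strain 4 and 4). Conditional deletions on C57BL/6 used LyzM-Cre (2 LyzM Cre/Cre Cebpb flox/flox against 2 flox/flox without Cre) and CD11c-Cre (4 CD11c +/Cre Cebpb flox/flox against 3 CD11c +/Cre controls, which carry the same Cre and EGFP transgene). In the LyzM-Cre set the Cre allele and the deletion go together, so their effects cannot be told apart. LyzM-Cre is active in myeloid cells at large and CD11c-Cre in cells that express Itgax, which alveolar macrophages and dendritic cells both do. The Lip strain (C/EBPtm1.2Acle, mixed background), named for the short C/EBPβ isoform without the main transactivation domain, gave 3 Lip +/+ controls, 4 Lip/Lip CD11b-low and 4 Lip/Lip CD11b-high libraries. Fetal cells at E18 were premature alveolar macrophages of whole lung from the Cebpb strain (3 wild-type, 4 knockout) and from Csf2rbtm1Cgb/J mice (4 wild-type, 3 knockout), which lack the common β chain of the GM-CSF receptor, and Ly6Chi monocytes of the Cebpb strain (3 and 4). In mixed chimeras, lethally irradiated CD45.1/2 mice received wild-type CD45.1 (B6.SJL-Ptprca-Pepcb/BoyJ) and CD11c-Cre Cebpb fl/fl CD45.2 marrow together with enrofloxacin, and donor-derived alveolar macrophages were taken at 5 weeks (3 wild-type, 4 knockout) and 10 weeks (4 and 3); the congenic marker and the genotype go together there. Accessibility as given below came from cultures of adult alveolar macrophages, all given IFNα, with Mx-Cre alone (2) or with Mx-Cre and Cebpb deletion (3). The labels name separate samples and not separate animals, so each p-value measures the spread between these samples, which may be technical.

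Alveolar macrophages take up and degrade surfactant, which is mostly phospholipid and cholesterol. In the lysosome, Pla2g15 deacylates phospholipids, Lipa hydrolyses cholesteryl esters and triglycerides, Smpd1 cleaves sphingomyelin, Asah1 cleaves ceramide, prosaposin (Psap) is the precursor of the saposins that present sphingolipids to their hydrolases, and Npc2 hands free cholesterol to the membrane protein Npc1 for export. These enzymes work at acidic pH, which the V-ATPase maintains with a cytosolic V1 sector that hydrolyses ATP and a membrane V0 sector that conducts protons; many of the genes carry CLEAR elements, E-box-like sites bound by TFEB, TFE3 and MITF.

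The promoter windows of 5 members are shown because they hold the motifs these factors and C/EBP proteins are known to bind, in genes whose transcripts moved in opposite directions: Gla, Lamp1 and Npc2 rose in several adult deletions, Atp6v0d1 and Ppt1 fell. Each runs 5′ to 3′ on the gene's strand, from 250 bases before to 50 bases after the RefSeq start site, build GRCm38.p6, and lies in a promoter and first exon. Capitals mark matches, on either strand, to the E-box CACGTG (in Gla and Atp6v0d1 within the longer CLEAR-type TCACGTGA, in Lamp1 alone) or, in Npc2 and Ppt1, to the C/EBP-type TTGCNNAA. The Gla window is chrX:134600956-134601255 on the minus strand, Lamp1 chr8:13158911-13159210 on the plus strand, Atp6v0d1 chr8:105566015-105566314 on the minus strand, Npc2 chr12:84773063-84773362 on the minus strand and Ppt1 chr4:122835977-122836276 on the plus strand.
Gla: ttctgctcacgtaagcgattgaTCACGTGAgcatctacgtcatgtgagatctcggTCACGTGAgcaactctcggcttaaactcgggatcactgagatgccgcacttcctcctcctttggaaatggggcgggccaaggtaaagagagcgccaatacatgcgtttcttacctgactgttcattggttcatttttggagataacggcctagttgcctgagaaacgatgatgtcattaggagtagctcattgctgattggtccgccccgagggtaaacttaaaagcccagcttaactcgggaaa
Lamp1: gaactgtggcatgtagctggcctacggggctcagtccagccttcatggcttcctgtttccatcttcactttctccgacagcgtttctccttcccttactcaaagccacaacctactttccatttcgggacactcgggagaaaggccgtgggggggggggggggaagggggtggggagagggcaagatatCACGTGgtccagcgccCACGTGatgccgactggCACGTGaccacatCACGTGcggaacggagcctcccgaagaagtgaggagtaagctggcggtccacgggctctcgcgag
Atp6v0d1: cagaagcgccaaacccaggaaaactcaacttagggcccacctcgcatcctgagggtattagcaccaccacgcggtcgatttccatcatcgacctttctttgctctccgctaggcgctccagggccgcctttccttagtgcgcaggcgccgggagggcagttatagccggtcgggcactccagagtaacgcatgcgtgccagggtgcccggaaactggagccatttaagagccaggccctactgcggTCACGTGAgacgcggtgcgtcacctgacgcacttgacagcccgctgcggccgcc
Npc2: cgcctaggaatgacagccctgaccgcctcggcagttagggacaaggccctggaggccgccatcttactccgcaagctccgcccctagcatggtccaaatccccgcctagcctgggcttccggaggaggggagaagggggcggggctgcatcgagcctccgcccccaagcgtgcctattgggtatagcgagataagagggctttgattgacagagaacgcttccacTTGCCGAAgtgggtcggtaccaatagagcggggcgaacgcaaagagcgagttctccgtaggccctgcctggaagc
Ppt1: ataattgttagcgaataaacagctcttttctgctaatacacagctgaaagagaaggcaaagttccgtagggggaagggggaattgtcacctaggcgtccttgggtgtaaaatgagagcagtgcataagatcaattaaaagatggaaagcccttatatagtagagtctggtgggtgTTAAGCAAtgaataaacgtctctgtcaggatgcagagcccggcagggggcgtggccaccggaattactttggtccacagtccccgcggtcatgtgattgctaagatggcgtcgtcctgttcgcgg

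RefSeq promoters were matched for 46 of the 56 members. The E-box was present in 11 of these 46 windows (23.9%), beside 11.7% of the 9257 windows of genes tested in the RNA data and 8.09% of all 27025 windows. The CLEAR-type octamer, which contains the E-box, was in 5 (10.9%), beside 2.13% and 1.12%: Gla with a pair of copies at -228 and -195 relative to the start, Atp6v0d1 at -4, Atp6v0e, Atp6v1a and Mcoln1. Lamp1 held 4 E-boxes, at -61, -45, -28 and -15. The C/EBP-type motif was in 7 windows (15.2%), beside 10.2% of tested genes and 12.2% of all windows; it stood at -25 in Npc2, -75 in Ppt1 and -90 in Gaa. Genes with an E-box were found among members that rose (Gla, Lamp1, Gaa) and among members that fell (Atp6v0d1, Atp6v0e). A match is a string of letters in this window and not a binding site.

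**Figure D1:**
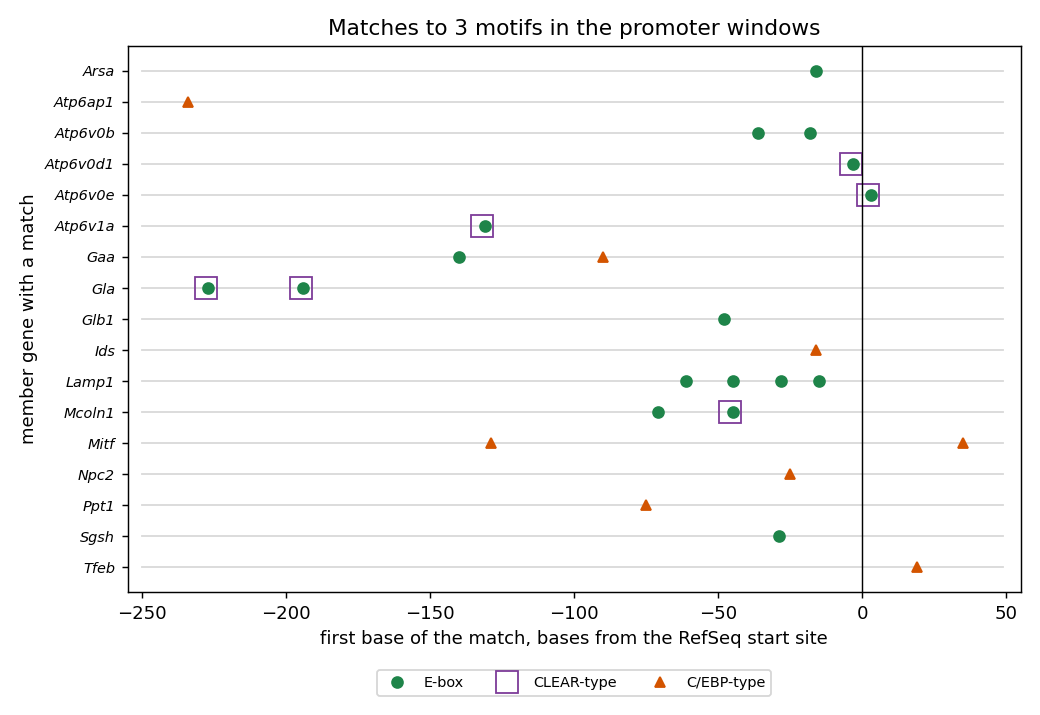
Positions of motif matches in the promoter windows of the 17 members that held any, from 250 bases before to 50 bases after the start site (x axis, bases). Marks show E-box, CLEAR-type and C/EBP-type matches on either strand; Lamp1 carries 4 E-boxes close to its start and Gla a pair of CLEAR-type matches further upstream.

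The libraries held between 642269 and 17834909 counts and between 9387 and 13579 detected genes. Levels are given as CPM, counts per unit of library size after edgeR's TMM scaling, and since counting was at the 3′ end they are compared between libraries for 1 gene and not between genes. A limit of 3 counts corresponded to 0.168 to 4.67 CPM, which covers counting error only. Cebpb itself was at 543 to 1444 CPM in the adult wild type of the CD11b-sorted set and at 24.4 to 86.0 in its knockout libraries, and Csf2rb at 760 to 1170 in its wild type and 292 to 358 in its knockout. A list of 12 alveolar macrophage markers summed to 9884 to 12250 CPM in that wild type, 3070 to 4013 in CD11b-low and 789 to 2012 in CD11b-high knockout cells, while 10 monocyte and tissue macrophage markers summed to 374 to 540, 3173 to 8391 and 5384 to 7317. Their part in the results below was not tested, and in these bulk samples fewer cells of a type and less RNA per cell cannot be told apart. A gene is said to rise or fall where edgeR's quasi-likelihood test with Benjamini-Hochberg adjustment over all tested genes gave an adjusted p under 0.05.

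Loss of C/EBPβ in adult macrophages raised some members and lowered others in each class of hydrolases and in the proton pump. The lipid genes Npc2, Smpd1 and Psap, the hexosaminidase and α-galactosidase genes Hexa and Gla, the sulfatase Arsb and the V0 subunit Atp6v0a1 rose in at least 5 of 9 adult deletions, and Neu1, Pla2g15, Galns, Atp6v1b2 and Atp6v1e1 fell in at least 5 (Atp6v1b2 and Atp6v1e1 in 4 with replicates paired in the 10-week chimera). How often all genes were called this way is not given here, so whether these recurrences are unusual was not tested. The 5-week chimera, where nearly all called members fell, is not among the 9 and is described below. In CD11b-low knockout cells 5 of 46 tested members rose and 5 fell, beside 8.28% of all genes higher and 6.81% lower. CD11b-high knockout cells had 10 higher and 8 lower of 46, beside 12.2% and 11.8%. In the chromatin-matched knockout 11 of 48 rose and 10 fell, beside 14.6% and 12.6%. The members' median log2 difference was -0.06, 0.07 and 0.17 in these 3 comparisons, against 0.00, 0.01 and 0.02 over all genes. The CD11b-low count was 6 without wild-type replicate 2 and 5 without CD11b-low replicate 3.

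The other adult deletions also had calls in both directions, but for the LyzM-Cre set. Facility 1 knockout females had 10 members higher and 4 lower of 49, beside 12.5% and 10.8% of all genes, and the count of 14 was 8 without either wild-type replicate 2 or knockout replicate 2. Facility 2 knockout females had 17 higher and 10 lower of 49, beside 24.9% and 22.7%. Knockout males had 4 higher (Npc2, Smpd1, Gusb and Arsb) and 2 lower (Galns and Atp6v0e2) of 49, beside 7.12% and 3.76%, and 2 in all without wild-type replicate 2. In the LyzM-Cre deletion 1 of 46 rose (Atp6v0a1) and 0 fell, beside 2.96% and 1.72%; this count was 0 without either control, 21 without knockout replicate 1 and 18 without knockout replicate 2. The CD11c-Cre deletion had 12 higher and 1 lower (Galns) of 47, beside 10.3% and 6.48%. At 10 weeks in the chimera 16 rose and 14 fell of 49, beside 24.5% and 21.1%. Across these 9 adult comparisons 18 members were called in 1 direction in at least 4, of which 12 were higher and 6 lower. Of the 9, CD11b-low and CD11b-high knockout share their wild-type libraries. The share of all genes called in this way is not given here, so whether 18 is unusual was not tested. With the replicate block in the 10-week chimera, where replicate numbers paired the libraries, 17 members were called in 1 direction in at least 4 comparisons, 12 higher and 5 lower: Ppt1 was then lower in 3, and Atp6v1b2 and Atp6v1e1 in 4 each. Atp6v0c passed the low-count filter in 1 of the 9 and Atp6ap1l, Atp6v0a4, Atp6v1b1, Atp6v1c2, Atp6v1e2 and Atp6v1g3 in 0. Missing this filter reflects few counts and does not show that a gene is not expressed.

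**Figure D2:**
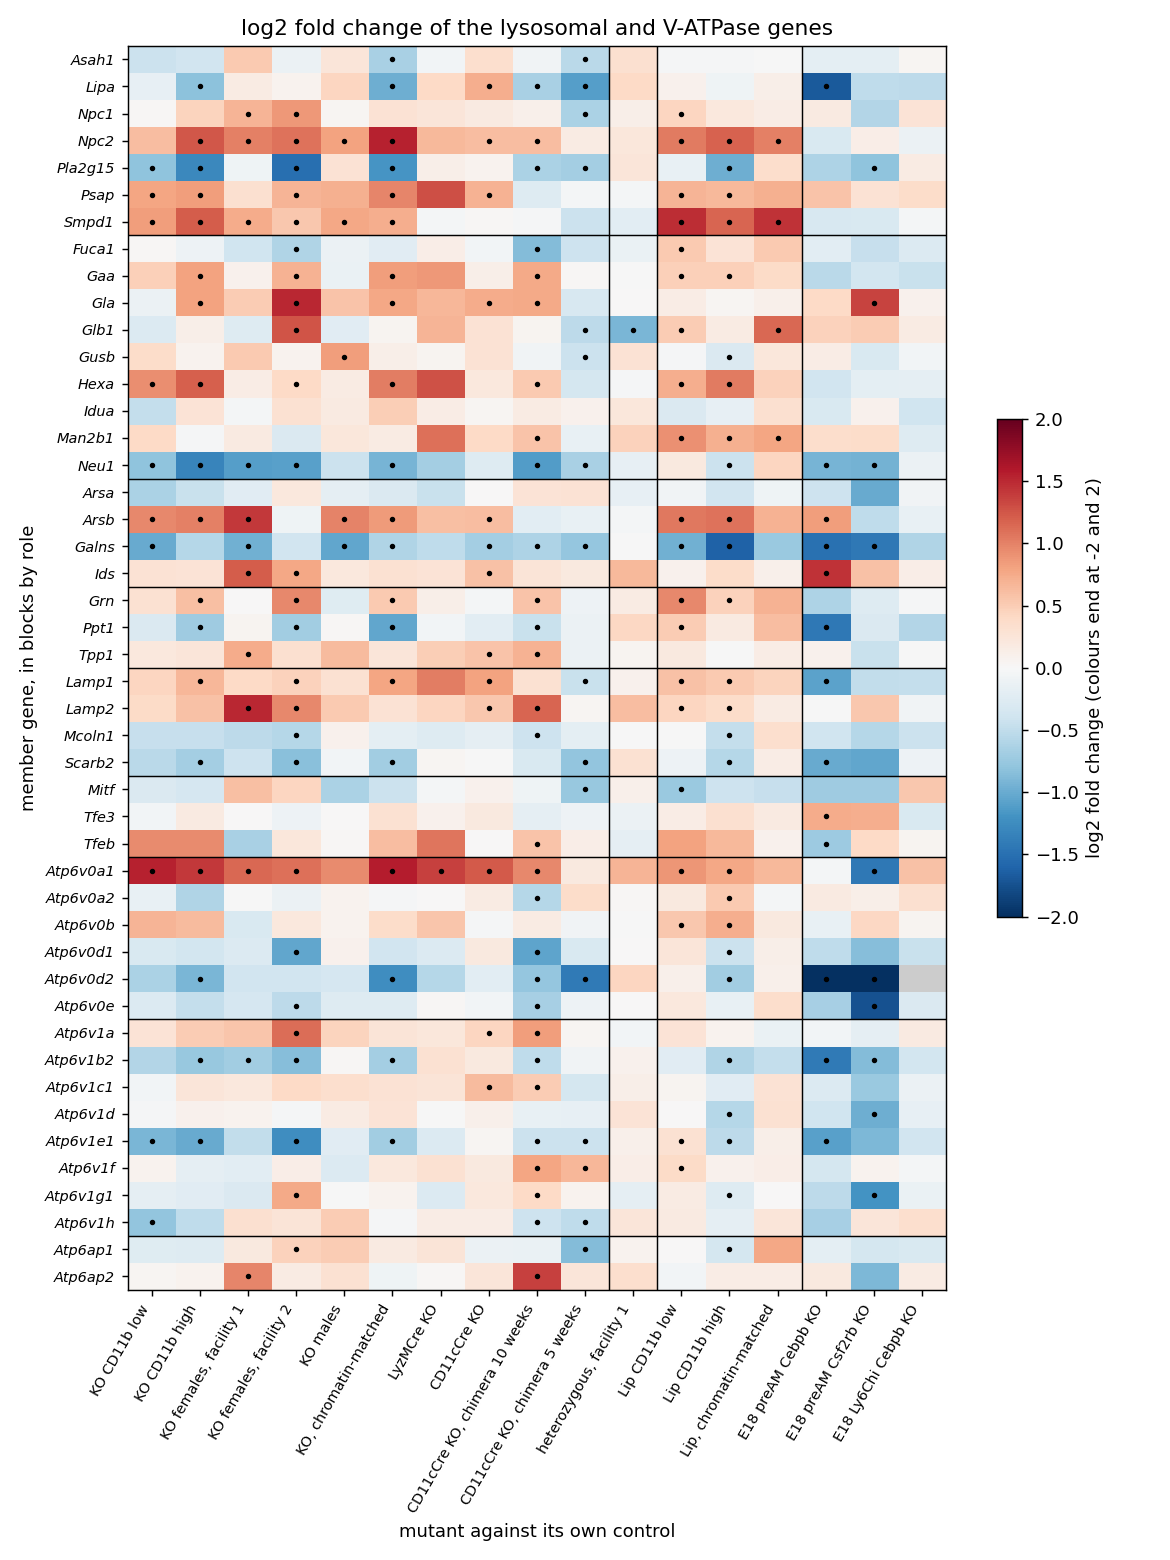
Log2 difference (colour, from -2 to 2) of the 46 members tested in at least 15 of 17 comparisons, mutant against its own control, in rows grouped by role; a black dot marks an adjusted p under 0.05 and grey a gene not tested. Within each block of roles rows of opposite colour stand side by side, and Atp6v0a1 and Npc2 have the most dots in the 9 adult deletions.

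**Figure D3:**
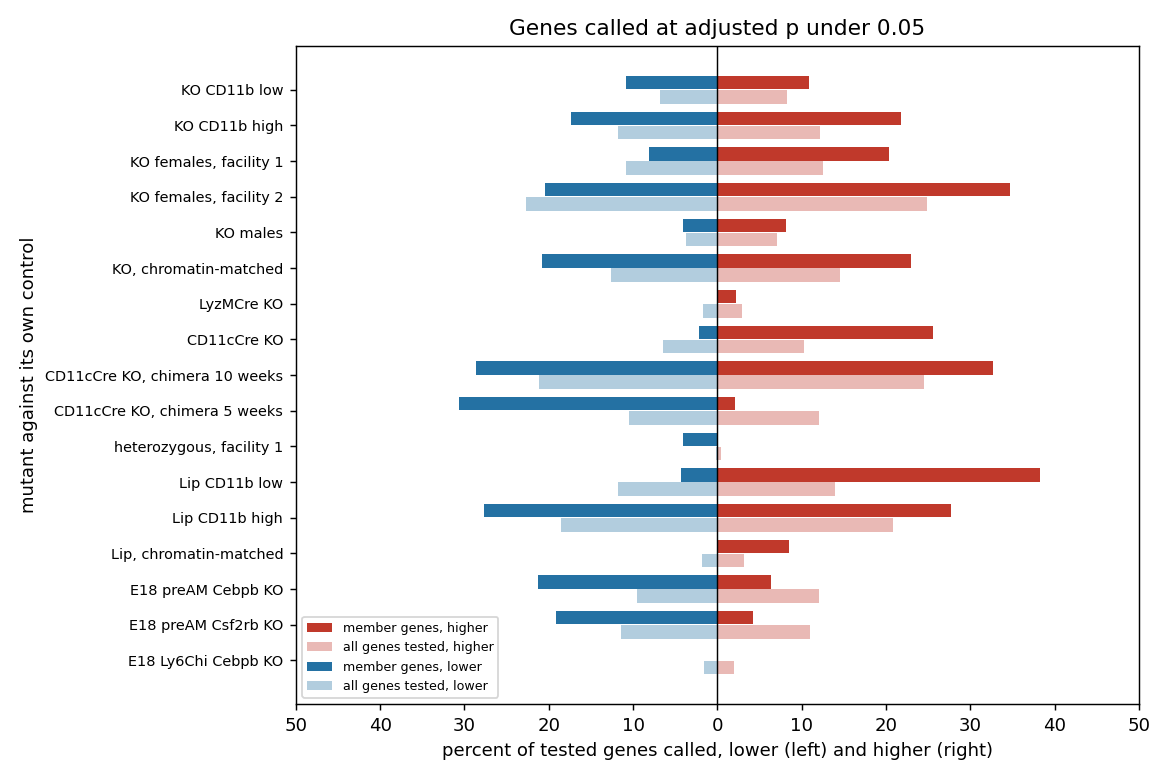
Share of tested members (percent) called higher or lower in each of 17 comparisons, beside the share of all tested genes. The gap between members and all genes is widest for higher calls in the Lip CD11b-low macrophages (18 of 47 members, 14.0% of all genes) and for lower calls in the 5-week chimera (15 of 49 members, 10.5% of all genes).

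Among the lipid genes, Npc2 had a positive log2 difference in all 9 adult deletions and rose in 7, of which 5 calls were kept whichever library was left out; the exceptions were males (without wild-type replicate 2, range 0.66 to 0.97) and the 10-week chimera (without knockout replicate 1, range 0.43 to 0.80). In the chromatin-matched set its level was 753, 715 and 744 CPM in wild type and 2118, 1916 and 2406 in knockout, a log2 difference of 1.54 (SE 0.15, adjusted p = 7.98e-05). In the CD11b-sorted set wild type was at 1106, 871, 799 and 767 CPM, CD11b-high knockout at 1646, 1818, 2663 and 2214 (log2 difference 1.24, SE 0.21, adjusted p = 1.58e-04) and CD11b-low knockout at 1047, 1424, 1417 and 1540 (0.62, SE 0.21, adjusted p = 0.051). Every CD11b-high library lay above every wild-type library, and 1 CD11b-low library lay within the wild-type range. The partner Npc1, which takes cholesterol from Npc2, rose in both female sets: to 215 and 308 CPM from 177 and 151 at facility 1 (log2 difference 0.67, lost without wild-type or knockout replicate 2, range 0.37 to 0.90) and to 317 and 267 from 160, 142 and 177 at facility 2 (0.87, SE 0.17, adjusted p = 5.80e-04). In the CD11b-low cells Npc1 was at 107, 97.9, 115 and 108 CPM beside 109, 107, 111 and 96.4.

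Psap and Smpd1, which act on sphingolipids, rose together in the CD11b-sorted and chromatin-matched sets. Psap stood at 2103, 2425, 2656 and 2947 CPM in wild type, 3889, 4104, 4366 and 5142 in CD11b-low knockout (log2 difference 0.79, SE 0.19, adjusted p = 0.00579) and 4166, 3961, 4643 and 5324 in CD11b-high knockout (0.84, adjusted p = 0.00212), with no overlap. Smpd1 stood at 25.2, 14.9, 31.1 and 33.8 CPM in wild type and at 60.3, 48.0, 74.8 and 66.7 in CD11b-high knockout (1.21, SE 0.26, adjusted p = 0.00157). Of its 6 calls in the adult deletions 1 was kept whichever library was left out, against 4 of 5 for Psap. In the conditional CD11c-Cre deletion Psap rose (0.70, adjusted p = 0.00582) and Smpd1 had a log2 difference of 0.02; both genes were near 0 in the 10-week chimera (-0.26 and -0.02, adjusted p = 0.45 and 0.938).

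The lysosomal phospholipase A2 Pla2g15 moved the other way. Its level was 1071, 695, 525 and 644 CPM in wild type and 209, 248, 363 and 378 in CD11b-high knockout, a log2 difference of -1.29 (SE 0.25, adjusted p = 5.19e-04). In facility 2 females it was 938, 927 and 834 against 318 and 313 (-1.51, SE 0.23, adjusted p = 4.79e-05), and in the chromatin-matched set 505, 443 and 547 against 259, 235 and 165 (-1.18, adjusted p = 0.00187). Groups did not overlap in any of these. In CD11b-low cells, at 493, 345, 408 and 430 CPM, it fell by 0.80 (adjusted p = 0.0299), which was lost when any of 5 libraries was left out (range -0.94 to -0.56). Facility 1 females had 808 and 687 CPM in wild type and 796 and 616 in knockout, males 669 and 714 against 950 and 741, and CD11c-Cre mice a log2 difference of 0.07: in these sets the groups overlapped or the knockout was above.

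Lipa, the lysosomal acid lipase, fell in 3 adult deletions and rose in 1. Wild type was at 354, 526, 671 and 560 CPM, CD11b-low knockout at 566, 418, 454 and 438 (log2 difference -0.17) and CD11b-high knockout at 229, 281, 303 and 383 (-0.82, SE 0.22, adjusted p = 0.00941). In the chromatin-matched set it was 561, 508 and 385 against 224, 237 and 276 (-0.98). In the CD11c-Cre deletion Lipa was 443, 449 and 455 CPM in controls and 808, 773, 735 and 650 in knockout (0.72, SE 0.11, adjusted p = 6.41e-04), with every knockout library above every control. Asah1 fell in the chromatin-matched knockout alone among the 9 adult deletions, and it also fell in the 5-week chimera. This gene overlaps Frg1 in the RefSeq annotation.

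**Figure D4:**
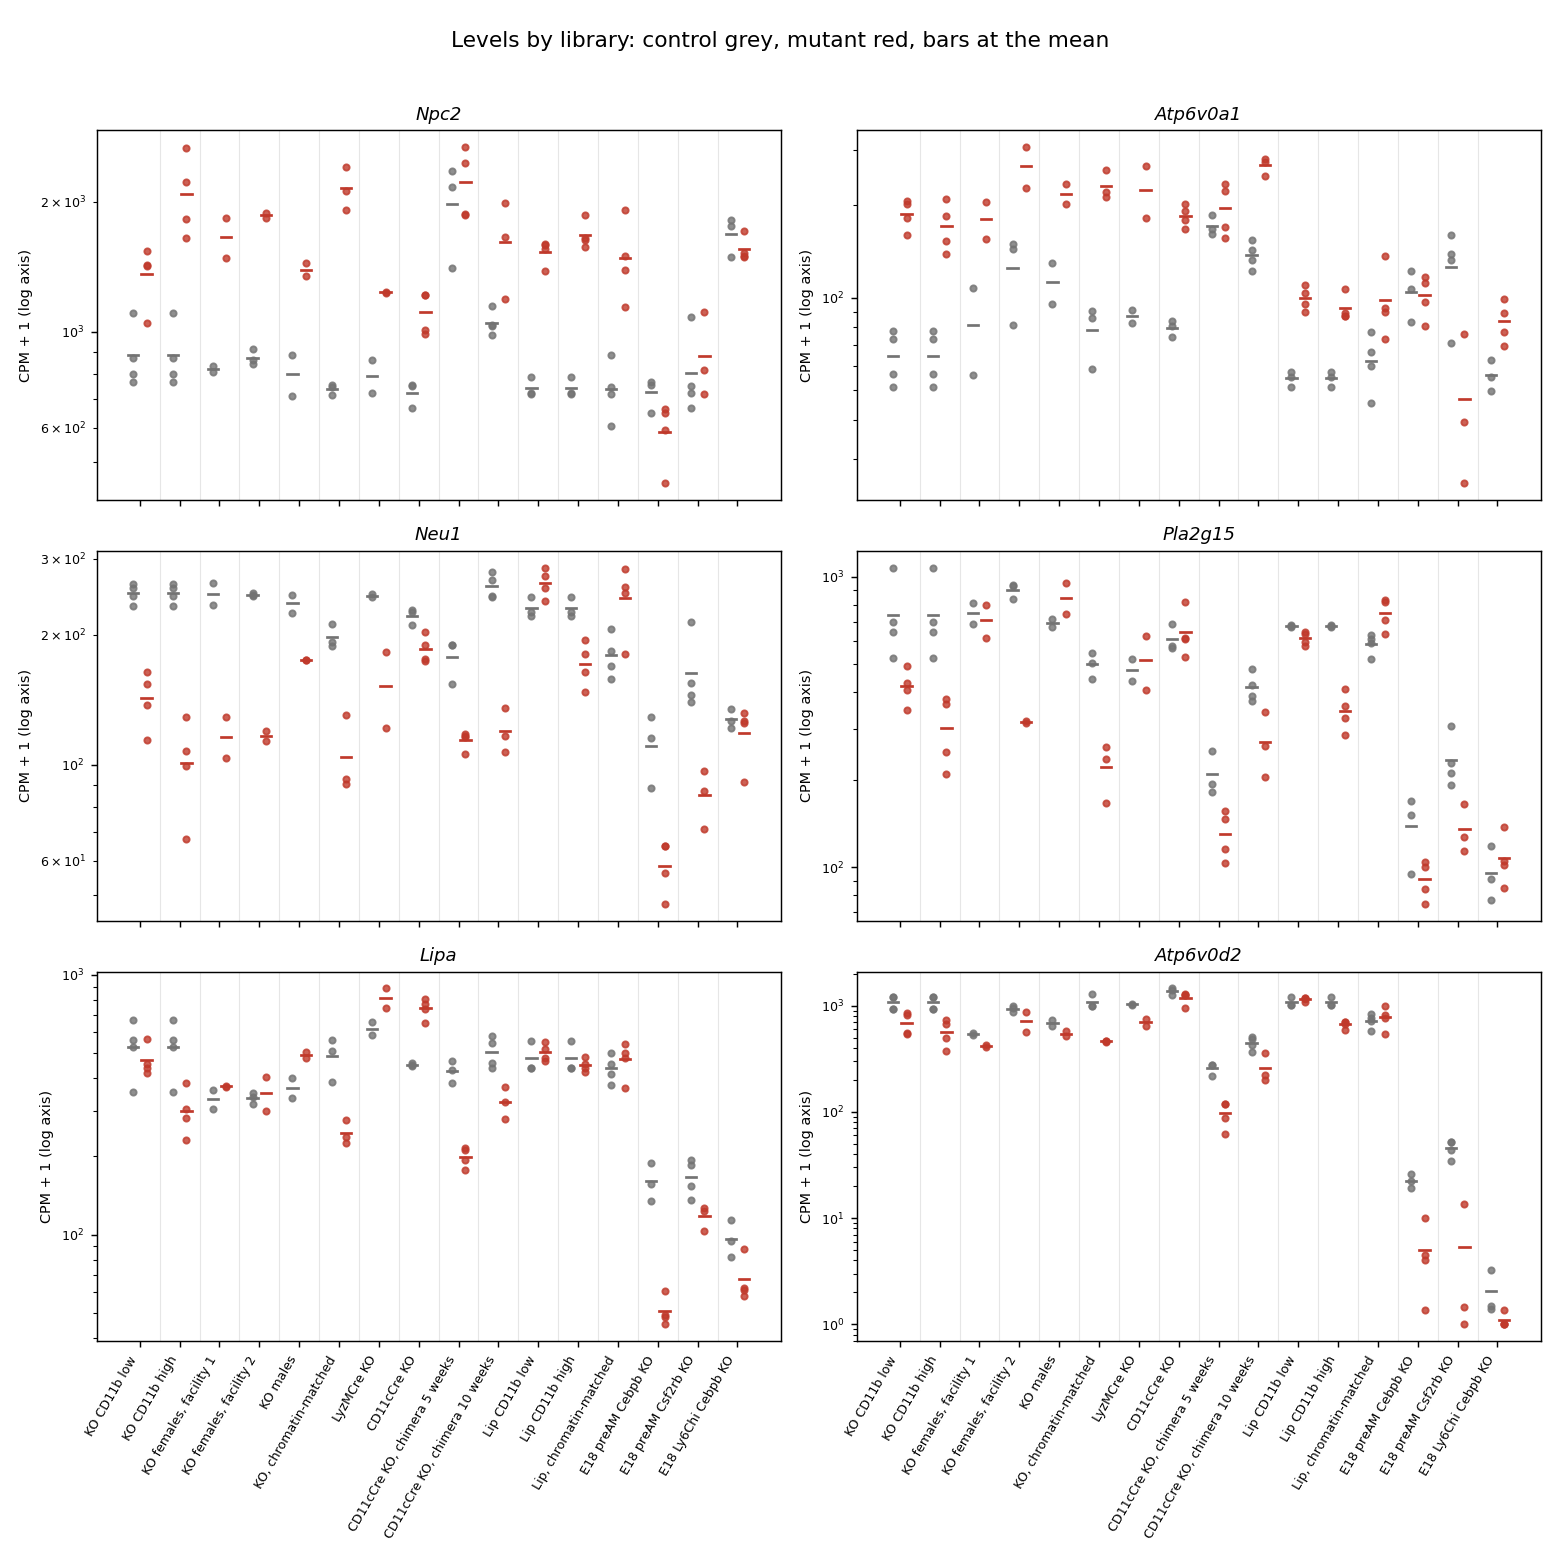
CPM + 1 (log axis) per library of Npc2, Atp6v0a1, Neu1, Pla2g15, Lipa and Atp6v0d2 in 16 comparisons, controls in grey and mutants in red, with a bar at each group's mean. Npc2 and Atp6v0a1 lie higher in the adult deletions and Neu1 lower; Lipa lies higher in the CD11c-Cre deletion and lower in E18 knockout macrophages.

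Of the glycosidases, the sialidase Neu1 fell in 6 of 9 adult deletions, and each of those calls was kept whichever library was left out. Its level was 232, 256, 260 and 245 CPM in wild type, 153, 113, 137 and 163 in CD11b-low knockout (log2 difference -0.81, SE 0.20, adjusted p = 0.0093) and 66.4, 98.5, 128 and 106 in CD11b-high knockout (-1.32, SE 0.21, adjusted p = 6.54e-05). It was 233 and 262 against 128 and 103 at facility 1, and 245, 246 and 249 against 113 and 119 at facility 2. In these 4 comparisons the knockout and wild-type libraries did not overlap. Males (246 and 224 against 174 and 174; -0.44, adjusted p = 0.0921) and CD11c-Cre mice (-0.26, adjusted p = 0.133) had smaller differences that missed the threshold.

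Hexa, the α subunit of β-hexosaminidase, rose in CD11b-low (974, 890, 1033 and 1138 CPM in wild type against 1795, 2864, 1605 and 1453; log2 difference 0.93) and CD11b-high knockout (3691, 1950, 1627 and 2002; 1.20, SE 0.26, adjusted p = 0.00173), again without overlap; the CD11b-low call was lost without wild-type or CD11b-low replicate 2 (range 0.69 to 1.05). Gaa, the acid α-glucosidase, rose in 4 deletions, among them the chromatin-matched set with 104, 101 and 87.7 CPM in wild type and 143, 194 and 186 in knockout (0.84, SE 0.17, adjusted p = 0.00547). Gla, the α-galactosidase A whose promoter is printed above, was not called in CD11b-low cells (79.5, 71.8, 60.3 and 64.6 against 56.8, 70.4, 58.3 and 69.7; -0.12), where the groups overlapped, and rose to 92.0, 83.4, 175 and 132 CPM in CD11b-high cells (0.80). Its highest call was at facility 2, with 59.6, 62.7 and 62.2 against 182 and 169 (1.51, SE 0.18, adjusted p = 2.52e-06). Fuca1, the α-fucosidase, fell at facility 2 and in the 10-week chimera. Glb1, the β-galactosidase, rose at facility 2 (63.0, 59.2 and 71.6 against 131 and 176; 1.25, adjusted p = 2.91e-05), with log2 differences of -0.25 at facility 1 and 0.05 in the chromatin-matched set. Gusb, the β-glucuronidase, rose in males (321 and 347 against 603 and 593; 0.84, adjusted p = 0.015), which was lost whichever library was left out (range 0.79 to 0.90).

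The sulfatases held a pair that moved oppositely. Arsb, which removes sulfate from dermatan and chondroitin sulfate, rose in 6 deletions: 53.8 and 53.4 CPM against 140 and 147 at facility 1 (log2 difference 1.42, SE 0.21, adjusted p = 7.00e-05) and 40.3, 34.4 and 39.2 against 66.1, 61.4 and 78.4 in the chromatin-matched set (0.86, adjusted p = 0.00391). Both differences are wider than the spread. Galns, which acts on keratan and chondroitin sulfate, fell in 6: 110 and 98.4 against 55.5 and 45.6 in males (-1.04, SE 0.17, adjusted p = 3.33e-04), and 105, 99.5 and 90.9 against 57.7, 54.5, 79.3 and 54.9 in CD11c-Cre mice (-0.67, adjusted p = 0.00646). Galns overlaps Trappc2l in the annotation, and reads of overlapping genes may be shared. Ids, the iduronate sulfatase, rose in both female sets and the CD11c-Cre deletion, but each of these calls was lost when 1 of at least 2 libraries was left out.

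Sgsh, the heparan N-sulfatase, was close to 0 in adult wild-type macrophages and present after the deletion in several sets. In males it was tested and not called. In CD11c-Cre mice it was not tested, and controls (0.421, 0.773 and 0.823 CPM) and knockout (0.716, 2.73, 1.02 and 5.58) overlapped. Wild type of the CD11b-sorted set was at 0, 0, 0.663 and 0 CPM, CD11b-low knockout at 4.11, 1.72, 5.05 and 7.47 and CD11b-high at 18.1, 9.26, 4.08 and 3.44; the gene did not pass the filter there and was not tested. It rose in the chromatin-matched set (0.230, 0.184 and 0 against 8.13, 9.85 and 5.59 CPM, adjusted p = 1.75e-04) and in both female sets, where wild-type libraries were at 0 to 0.475 CPM; no fold is given against such counts. In the 10-week chimera it was 3.40, 2.08, 1.35 and 1.78 against 16.1, 24.6 and 15.7 (log2 difference 3.02, SE 0.31, adjusted p = 1.42e-06). A pair of neighbours overlaps it: Card14, an inflammatory scaffold gene, was at 0 in that adult wild type and at 8.90, 5.15, 4.49 and 7.47 CPM in CD11b-low cells, and the anion transporter gene Slc26a11 at 0 and at 5.47, 3.44, 3.36 and 11.2. The tables do not hold the strand of the reads, so transcripts of these 3 genes cannot be told apart in shared sequence.

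**Figure D5:**
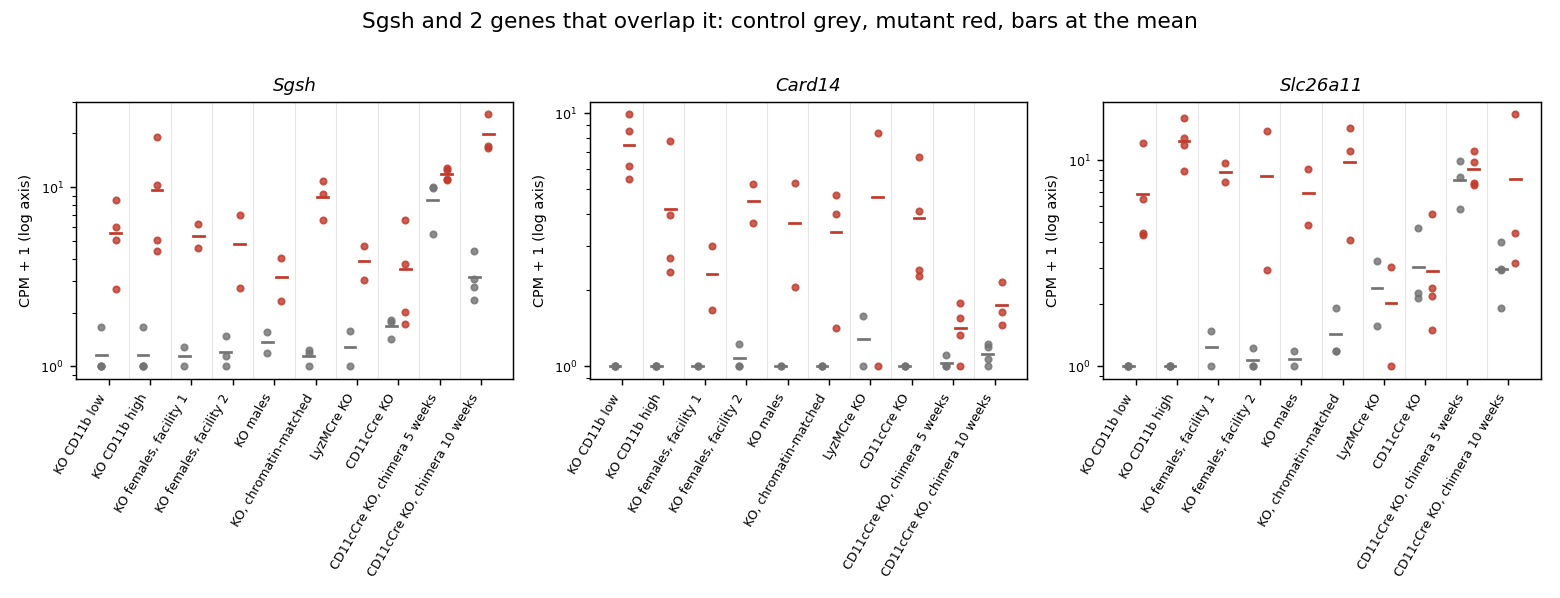
CPM + 1 (log axis) per library of Sgsh and of the overlapping genes Card14 and Slc26a11 in 10 comparisons, controls in grey and mutants in red, with a bar at each group's mean. All 3 genes lie at or near 0 in adult wild-type macrophages of the CD11b-sorted set and above it in the knockout libraries.

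Progranulin (Grn), a secreted glycoprotein delivered to lysosomes, and the depalmitoylating enzyme Ppt1 also parted. Grn was at 1106, 1430 and 1576 CPM in wild type and 2758 and 2585 in knockout at facility 2 (log2 difference 0.96, SE 0.19, adjusted p = 4.28e-04), and rose in the CD11b-high, chromatin-matched and 10-week sets by 0.52 to 0.60, the CD11b-high and chromatin-matched calls being lost when any of several libraries was left out. Ppt1 was at 287, 340 and 352 CPM against 145, 177 and 154 in the chromatin-matched set (-1.04, SE 0.16, adjusted p = 0.00124). Its other 3 adult calls, in the CD11b-high, facility 2 and 10-week sets, were each lost without 1 of several libraries, and the 10-week call also with replicates paired. Ppt1 overlaps Cap1.

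Of the membrane proteins, Lamp1 and Lamp2, the main glycoproteins that line the lysosomal membrane, rose in 4 of the 9 adult deletions each and Scarb2, the receptor that carries β-glucocerebrosidase, fell in 3. In the 5-week chimera, outside the 9, both Lamp1 and Scarb2 fell. Lamp1 was at 1207, 1277 and 1197 CPM in CD11c-Cre controls and 2004, 2363, 2129 and 2109 in knockout (log2 difference 0.81, SE 0.11, adjusted p = 1.91e-04). Lamp2 was at 132 and 88.5 against 292 and 332 at facility 1 (1.50, SE 0.22, adjusted p = 7.99e-05) and at 60.2, 79.3, 75.3 and 65.2 against 153, 152 and 165 in the 10-week chimera (1.16, adjusted p = 1.10e-05). No knockout library reached the control range in these 3 sets.

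The transcription factors of the family had 1 call in all across these deletions. Tfe3 was within 41.4 to 101 CPM in the germline adult sets and Mitf within 21.2 to 48.4, with no call in any of the 9 deletions. Tfeb was called once, higher in the 10-week chimera (35.1, 57.4, 40.3 and 47.6 CPM against 43.7, 58.2 and 98; 0.57, adjusted p = 0.0486), where groups overlap and leaving out any of 5 libraries ended the call (range 0.20 to 0.79), as did pairing the replicates. In the CD11b-sorted set Tfeb was at 68.9, 55.6, 137 and 148 CPM in wild type and 172, 333, 163 and 137 in CD11b-low knockout (0.94, adjusted p = 0.152), with overlap.

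In the V0 sector, Atp6v0a1, an isoform of the large proton-conducting a subunit, rose in 8 of the 9 adult deletions. It was at 76.9, 55.6, 72.2 and 50.2 CPM in wild type, 200, 204, 180 and 158 in CD11b-low knockout (log2 difference 1.54, SE 0.21, adjusted p = 2.51e-05) and 207, 184, 137 and 152 in CD11b-high knockout (1.41, adjusted p = 3.21e-05). The CD11c-Cre set gave 83.2, 79.8 and 73.8 against 190, 178, 200 and 166 (1.22, SE 0.12, adjusted p = 1.70e-05) and the LyzM-Cre set 90.1 and 81.7 against 266 and 180 (1.36, adjusted p = 0.0281, lost without either control, range 1.07 to 1.63). In each of these sets the lowest knockout library was above the highest control. Males had 94.6 and 129 against 233 and 200 (0.95, adjusted p = 0.0671). Of the 8 calls 5 were kept whichever library was left out; the exceptions were facility 1 (without wild-type or knockout replicate 1, range 0.75 to 1.68), facility 2 (without knockout replicate 1, range 0.81 to 1.30) and LyzM-Cre.

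Atp6v0d2, the d2 isoform of the V0 stalk known from macrophages and osteoclasts, had a negative log2 difference in all 9 adult deletions and fell in 3. It was at 1216, 1210, 937 and 922 CPM in wild type, 370, 500, 672 and 727 in CD11b-high knockout (-0.92, SE 0.24, adjusted p = 0.00683) and 819, 546, 537 and 849 in CD11b-low knockout (-0.64, adjusted p = 0.0744). In the chromatin-matched set it was 992, 986 and 1294 against 457, 466 and 465 (-1.24, SE 0.16, adjusted p = 4.74e-04). The widely expressed d1 isoform, Atp6v0d1, was at 301, 309, 267 and 270 CPM against 252, 189, 214 and 275 in CD11b-low cells (-0.30, with overlap) and fell at facility 2 (515, 538 and 579 against 321 and 212; -1.03, SE 0.19, adjusted p = 2.69e-04). Atp6v0e2, a small V0 subunit, was at 10.5 and 16.0 CPM in facility 1 wild type and at 0 and 0 in knockout, below the limit of 3 counts, and at 22.2 and 8.51 against 0 and 0.792 in males; no fold is given. At facility 2 it was not called (adjusted p = 0.2175). Controls were already near 0 in the LyzM-Cre set (0.577 and 0.749 CPM, knockout 0 and 0.818). The same held for CD11c-Cre (0, 0 and 0.165, knockout 0.239, 0, 0.765 and 2.32) and the chromatin-matched set (0.691, 0.184 and 0.183, knockout 0, 1.16 and 7.73).

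In the V1 sector, Atp6v1e1, a subunit of the peripheral stalks, fell in 5 adult deletions, 4 of them kept whichever library was left out, and in 4 with replicates paired in the 10-week chimera. It was at 316, 194, 205 and 221 CPM in wild type, 114, 141, 114 and 131 in CD11b-low knockout (log2 difference -0.91, SE 0.20, adjusted p = 0.00302) and 106, 110, 139 and 112 in CD11b-high knockout (-1.0, adjusted p = 6.90e-04). Atp6v1b2, the catalytic-sector B subunit, fell in 5 as well (again 4 with that pairing); at facility 2 it was 348, 351 and 363 against 190 and 200 (-0.86, SE 0.15, adjusted p = 1.67e-04). These groups were apart. The catalytic A subunit Atp6v1a rose at facility 2, in the CD11c-Cre deletion and in the 10-week chimera. Of the accessory proteins, Atp6ap2 rose at facility 1 (143 and 106 against 212 and 278; 0.97, lost without wild-type or knockout replicate 2, range 0.75 to 1.20) and in the 10-week chimera (44.3, 50.0, 46.6 and 30.9 against 88.5, 118 and 124; 1.36, SE 0.18, adjusted p = 2.14e-05). Atp6ap1 was called in 1 adult deletion, facility 2 (217, 236 and 230 against 297 and 332; 0.47, adjusted p = 0.0342), and lost whichever library was left out (range 0.38 to 0.50).

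Few members were called where 1 copy of Cebpb remained: in facility 1 heterozygous females 0 of 49 members rose and 2 fell, Glb1 (66.9 and 61.5 CPM against 28.9, 38.6 and 34.8; log2 difference -0.91, adjusted p = 0.0359) and Atp6v0e2, beside 0.462% and 0.172% of all genes; 7 members had an unadjusted p under 0.05. The share of all genes under that unadjusted limit is not given here. The count of 2 called members was 0 without wild-type replicate 2 and 1 without any other library. The knockout effect differed between the facilities for 7 members, 5 with the higher value at facility 2 (3.44% of all genes) and 2 with the lower (4.17%). Arsb differed by -1.51 (SE 0.28, adjusted p = 0.00454), having been at 68.3, 52.2 and 65.1 CPM in wild type and 64.0 and 53.1 in knockout at facility 2, where the groups overlapped. Pla2g15 differed by -1.43 (adjusted p = 0.0152), and Glb1, Gla, Grn, Atp6v1g1 and Atp6v0e2 on the higher side. The alveolar macrophage markers summed to 1349 to 3152 CPM in facility 1 knockout and 616 to 1200 in facility 2 knockout, and mitochondrial counts made 0.224% to 0.484% and 0.886% to 1.22% of those libraries; their part was not tested, and facility, batch and day cannot be told apart. The count of 7 was 3 without facility 1 wild-type replicate 2 or knockout replicate 1, and 4 without facility 2 wild-type replicate 1 or 2. In males the alveolar macrophage marker sum was 4688 to 4926 CPM in knockout against 9557 to 9897 in wild type, and its part was not tested.

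Between the sorted knockout fractions, CD11b-high against CD11b-low, 1 of 46 members rose and 0 fell, beside 1.19% and 2.61%. It was Gla, at 92.0, 83.4, 175 and 132 CPM against 56.8, 70.4, 58.3 and 69.7 (log2 difference 0.92, SE 0.23, adjusted p = 0.0264). The groups were apart, and the call was lost without CD11b-low replicate 1 or 3 or CD11b-high replicate 3 or 4 (range 0.71 to 1.06). A member called in 1 knockout fraction and not in the other, such as Lipa, was not shown to differ between them (Lipa and the other members had adjusted p over 0.05 in this direct comparison).

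In fetal lung, the knockout lowered more members than it raised. In E18 premature alveolar macrophages lacking C/EBPβ, 3 of 47 members rose (Ids, Arsb and Tfe3) and 10 fell, beside 12.0% and 9.55% of all genes, and the members' median log2 difference was -0.35 against -0.02. Lipa fell from 188, 156 and 134 CPM to 59.7, 48.2, 44.1 and 47.3 (log2 difference -1.67, SE 0.20, adjusted p = 3.63e-05). Ppt1 fell from 129, 128 and 151 to 49.9, 53.4, 49 and 50.0 (-1.43, SE 0.18, adjusted p = 6.38e-05), and Atp6v1b2 from 176, 254 and 187 to 94.2, 93.2, 71.3 and 50.5 (-1.41, adjusted p = 6.74e-04). In all 3 genes the highest knockout library was below the lowest control. Galns (-1.49), Neu1 (-0.94), Lamp1 (-1.08), Atp6v1e1 (-1.09) and Atp6v0d2, at 18.3, 24.8 and 21.2 CPM against 3.51, 0.351, 3.02 and 9.07 (-2.33, SE 0.54, adjusted p = 0.0064), fell too. Ids rose from 18.5, 14.9 and 18.8 to 48.5, 26.4, 47.1 and 67.2 (1.44, SE 0.30, adjusted p = 0.00337). Tfe3 (0.74, adjusted p = 0.034) and Tfeb (-0.72, adjusted p = 0.036) each lost the call when any of 5 libraries was left out (ranges 0.61 to 0.88 and -0.82 to -0.63). Atp6v0a1 and Npc2, the leading members of the adult deletions, had log2 differences of -0.03 and -0.30 here and were not called. Alveolar macrophage markers summed to 2064 to 2582 CPM in control and 102 to 225 in knockout, and 6 dendritic cell markers to 14.5 to 18.5 (Xcr1 and Clec9a at 0) and 345 to 782 (Xcr1 at 0); their part was not tested.

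Loss of the GM-CSF receptor chain also lowered more members than it raised, with 2 of 47 members higher (Gla and Sgsh) and 9 lower, beside 11.0% and 11.4%, and a median of -0.36 against -0.08. Galns fell from 83.6, 125, 101 and 136 CPM to 47.4, 25.9 and 50.0 (log2 difference -1.43, SE 0.32, adjusted p = 0.0108), Atp6v0e from 430, 575, 358 and 416 to 58.5, 233 and 111 (-1.74, SE 0.41, adjusted p = 0.0147) and Atp6v1b2 from 177, 201, 168 and 162 to 109, 94.1 and 88.4 (-0.87, adjusted p = 0.014). Groups did not overlap. Atp6v0a1, higher after adult Cebpb loss, fell from 70.5, 158, 137 and 131 to 75.1, 24.0 and 38.4 (-1.43, adjusted p = 0.0366), with overlap and lost without any of 5 libraries (range -1.99 to -1.14). The 11 calls became 7, 6 and 4 without wild-type replicate 1, 3 and 4. The knockout libraries had 9387 to 9418 genes detected against 11639 to 12557, and 8294 to 11640 CPM of monocyte and macrophage markers against 694 to 872; their part was not tested. The Cebpb and Csf2rb effects differed for 2 members, 0 higher and 2 lower after Cebpb loss, beside 7.18% and 4.18% of genes. They were Lipa (-1.10, SE 0.30, adjusted p = 0.0227, lost without Cebpb wild-type replicate 1 or Csf2rb wild-type replicate 4, range -1.21 to -0.98) and Sgsh (-2.03, adjusted p = 0.0232, lost without Cebpb wild-type replicate 2 or 3 or knockout replicate 1, range -2.26 to -1.86); the count was 1 without any 1 of the Cebpb wild-type libraries, Cebpb knockout replicate 1 or Csf2rb wild-type replicate 4, 4 without Csf2rb wild-type replicate 2 and 7 without Csf2rb knockout replicate 2.

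In Ly6Chi fetal monocytes of the Cebpb strain 0 of 46 members rose and 0 fell with edgeR, beside 1.99% and 1.64% of all genes. DESeq2 called 2 members. An unadjusted edgeR p under 0.05 was found for 7 members, and the share of all genes under that limit is not given here. Neu1 was at 125, 133 and 120 CPM against 124, 130, 90.0 and 125, and Atp6v0d2 at 2.24, 0.477 and 0.400 against 0, 0, 0.350 and 0, too low to be tested. Sgsh came closest to a fall, at 31.4, 22.2 and 24.4 CPM against 17.8, 11.5, 11.2 and 12.1 (log2 difference -0.96, adjusted p = 0.0651). Galns was next, at 98.3, 125 and 94.9 against 64.1, 78.3, 66.2 and 71.1 (log2 difference -0.61, adjusted p = 0.0722).

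In the mixed chimeras, nearly all members called at 5 weeks were lower in the knockout, while at 10 weeks calls went both ways. At 5 weeks 1 of 49 members rose (Atp6v1f, 319, 366 and 309 CPM against 486, 562, 538 and 507; log2 difference 0.66, adjusted p = 0.00316) and 15 fell, beside 12.1% and 10.5% of all genes. Lipa fell from 383, 431 and 466 to 210, 215, 193 and 176 (-1.10, SE 0.14), Atp6v0d2 from 219, 274 and 274 to 117, 118, 87.0 and 60.9 (-1.42, SE 0.23, adjusted p = 4.09e-04) and Atp6ap1 from 223, 301 and 377 to 174, 181, 176 and 124 (-0.87, adjusted p = 0.00474). Each knockout library lay below each control for these 3. Mitf fell by 0.76 (14.4, 13.2 and 15.8 against 9.38, 6.80, 7.67 and 10.2; adjusted p = 0.0224, lost without any of 4 libraries, range -0.85 to -0.68), and Npc1 fell by 0.64 (lost without knockout replicate 4 or wild-type replicate 2, range -0.77 to -0.51). At 10 weeks Neu1 was at 244, 244, 278 and 267 CPM against 134, 116 and 106 (-1.12, SE 0.12, adjusted p = 2.79e-06) and Atp6v0d1 at 386, 472, 453 and 448 against 283, 177 and 176 (-1.05, adjusted p = 7.21e-05). With replicate numbers as a block, which paired the 10-week libraries, 23 members were called in place of 30; Atp6v1b2 (adjusted p = 0.133), Atp6v1e1 (0.0993), Ppt1 (0.173) and Tfeb (0.125) were among those lost.

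The difference between the times was tested in 1 model. For 10 members the knockout effect was higher at 10 weeks (7.57% of all genes) and for 3 lower (5.97%). Lamp2 differed by 1.13 (SE 0.21, adjusted p = 0.00226): at 5 weeks it was 100, 85.7 and 96.5 CPM against 111, 108, 72.1 and 94.0. Gla differed by 1.09, Hexa by 0.87 and Lamp1 by 0.75, and Atp6v0a1 by 0.77, having been at 166, 184 and 159 against 233, 221, 168 and 155 at 5 weeks (0.20, adjusted p = 0.363); the Lamp1 and Atp6v0a1 differences were lost without 5-week wild-type replicate 2 (ranges 0.67 to 0.85 and 0.68 to 0.87). Atp6v0d1, Atp6v0e and Atp6v0a2 were the 3 lower ones. The count of 13 was 7 without that library and 22 without 10-week knockout replicate 1. Wild-type donor cells summed to 4407 to 9603 CPM of alveolar macrophage markers at 5 weeks and 16680 to 28090 at 10 weeks, and knockout cells to 1589 to 1983 and 804 to 2037. Dendritic cell markers summed to 497 to 649 in wild type and 2161 to 3868 in knockout at 5 weeks, and to 36.3 to 124 and 317 to 1396 at 10 weeks; their part was not tested.

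The Lip allele raised Smpd1, Npc2, Psap, Hexa, Arsb and Atp6v0a1 in both sorted fractions. Its CD11b-high cells were called lower for Neu1, Pla2g15 and Atp6v0d2, and its CD11b-low cells for none of these. In CD11b-low Lip/Lip macrophages 18 of 47 members rose and 2 fell (Galns and Mitf), beside 14.0% and 11.8% of all genes, with a median log2 difference of 0.20 against 0.00. Smpd1 was at 35, 30.9 and 30.1 CPM in control and 93.1, 82.4, 97.3 and 80.4 in Lip (log2 difference 1.48, SE 0.15, adjusted p = 2.89e-11), Npc2 at 784, 718 and 723 against 1599, 1383, 1550 and 1583 (1.04) and Grn at 1037, 1004 and 997 against 1966, 2044, 2074 and 1839 (0.97, SE 0.09, adjusted p = 7.38e-12). Atp6v0a1 rose from 56.5, 54.3 and 50.4 to 102, 89.1, 94.3 and 109 (0.89). Groups were apart in all 4 genes. Ppt1 was higher here, at 399, 399 and 435 against 619, 548, 532 and 639 (0.51, adjusted p = 6.69e-05), while Neu1 (225, 244 and 220 against 238, 272, 285 and 255; 0.19), Pla2g15 (-0.14) and Atp6v0d2 (0.10) were not called. Alveolar macrophage markers summed to 27450 to 29600 CPM in control, 13030 to 17180 in CD11b-low and 5194 to 6968 in CD11b-high Lip cells.

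In CD11b-high Lip cells, which share the 3 controls, 13 of 47 rose and 13 fell, beside 20.8% and 18.5%. Galns fell from 86.4, 74.9 and 71.3 CPM to 32.3, 22.0, 23.7 and 21.6 (log2 difference -1.62, SE 0.17, adjusted p = 7.49e-11), Pla2g15 from 683, 670 and 677 to 285, 356, 410 and 325 (-0.97, SE 0.10, adjusted p = 6.01e-11) and Atp6v0d2 from 1023, 1195 and 1019 to 696, 706, 665 and 590 (-0.70). Hexa rose to 1866, 1959, 2082 and 2145 from 1023, 884 and 1036 (1.04, adjusted p = 1.45e-12). Again no library crossed to the other group. Neu1 was called lower as well, both against control and in CD11b-high against CD11b-low Lip cells. The direct comparison of CD11b-high with CD11b-low Lip cells had 1 of 47 higher (Hexa, 0.31) and 17 lower, beside 10.1% and 9.45%, with a median of -0.22 against 0.00. Atp6v1e1 was at 248, 285, 305 and 271 CPM in CD11b-low and 171, 150, 164 and 142 in CD11b-high cells (-0.83, SE 0.10, adjusted p = 1.75e-08), Pla2g15 differed by -0.83, Atp6v0d2 by -0.80 and Atp6v0d1 by -0.67. The pump genes Atp6v1b2, Atp6v1d, Atp6v1f, Atp6v1g1, Atp6v0e and Atp6ap1 fell as well. With the replicate block, which paired these libraries, 22 members were called in place of 18, Smpd1 among them (-0.32, adjusted p = 0.0321).

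In the chromatin-matched set fewer members were called for Lip, with 4 of 47 higher (Man2b1, Npc2, Glb1 and Smpd1) and 0 lower, beside 3.10% and 1.84%; the count was 1 without control replicate 2 and 2 without control replicate 4 or Lip replicate 1. Smpd1 was at 20.2, 20.1, 18.4 and 17 CPM in control and 51.2, 48.4, 42.2 and 63.5 in Lip (log2 difference 1.45, SE 0.24, adjusted p = 9.55e-04), and Npc2 at 718, 605, 883 and 745 against 1499, 1142, 1388 and 1908 (1.01, adjusted p = 0.0122, lost without control replicate 2, range 0.85 to 1.12). The knockout and Lip effects were then compared in 1 model of this set. For 0 members was the knockout effect higher (2.90% of all genes) and for 5 it was lower (3.78%). Ppt1 differed by -1.65 (SE 0.32, adjusted p = 0.00203), being at 306, 331, 278 and 262 CPM in Lip controls and 457, 475, 596 and 273 in Lip. Pla2g15 differed by -1.53 (SE 0.28, adjusted p = 0.00131), Neu1 by -1.36 (adjusted p = 0.00516), Atp6v0d2 by -1.34 (adjusted p = 0.00843) and Lipa by -1.08 (adjusted p = 0.022, lost without wild-type replicate 1 or 2 or knockout replicate 1, range -1.22 to -0.97). Npc2, Smpd1 and Atp6v0a1 were not among the 5. The alveolar macrophage marker sum was 864 to 1293 CPM in the knockout and 10400 to 17100 in Lip cells of this set; its part was not tested.

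C/EBPβ binding in wild-type alveolar macrophages was read from peaks called in each of 2 samples, keeping peaks found in both (19114). A shared peak lay in or within 10 kb of 38 of the 56 members (67.9%), and of 37 of the 50 members tested in any comparison (74.0%) beside 6687 of 11503 tested genes (58.1%). Neu1 (chr17:34931253-34937297, GRCm38) had 3 such peaks, 1 of them across its start site, Atp6v0d2 (chr4:19876838-19922566) had 6 and Atp6v0a1 (chr11:101009422-101063719) had 5, so members that fell and members that rose were both among those with peaks. Of the 2 windows printed for a C/EBP-type match, that of Ppt1 lay under a shared peak (chr4:122835761-122836646). No shared peak at Npc2 overlapped its printed window. Accessibility was read from CSF2 cultures of alveolar macrophages, 2 with Mx-Cre alone and 3 with Mx-Cre and Cebpb flox/flox, all given IFNα. Of 465 accessible regions at members, 17 (3.66%) were called in every control culture and no deleted one and 16 (3.44%) the other way round, beside 3.83% and 4.34% of all 129652 regions. At Atp6v0d2 a pair of intragenic regions was found in controls only, chr4:19914096-19914542, which held a C/EBPβ peak, and chr4:19901135-19901460. At Lamp1 the control-only region chr8:13159079-13159404 lay on the start site and covers the E-boxes printed above. At Lipa the region chr19:34520221-34520578, in the gene and with a C/EBPβ peak, was found in the deleted cultures only.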

How the data were processed

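The authors deposited whole-number read counts per gene from 3′ RNA sequencing, in 3 tables that were analysed separately, and peak lists with the −log10 q-value of each peak. Per the submitters' processing notes the tools included STAR 2.6.1a and featureCounts 1.6.3 for reads of RNA, BWA 0.7.17, Bowtie2 and MACS2 2.2.7.1; their roles, the strand setting and any collapsing of duplicates are not given in the sources used here. Peaks were called per sample.

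Genes passing edgeR's filterByExpr (minimum count 10) in a comparison's libraries were fitted with edgeR 4.0.16 in R 4.3.3 (TMM scaling, robust quasi-likelihood fit and test, Benjamini-Hochberg adjustment over all tested genes, threshold 0.05), without a replicate block. Comparisons that share controls were fitted in 1 model, differences between effects as interaction terms. The standard error is the log2 difference divided by the square root of F. Scripts were tested on simulated data. Alternatives were DESeq2 1.42.0, RLE size factors, no low-count filter, a replicate block and leaving out each library. Total counts per library ran from 642269 to 17834909. No pair of libraries among 2317 within tables held identical counts. Replicate numbers were taken to pair libraries where every same-numbered pair correlated above 0.1 in its deviations from the group means: this held for Lip CD11b-high and CD11b-low (0.105 to 0.246) and the 10-week chimera (0.127 to 0.147), and the labels do not state it.

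Levels per library are given for Lipa, Npc1, Npc2, Lamp1, Lamp2, Tfeb, Tfe3, Mitf, Atp6v0d1, Atp6v0d2, Atp6v0a1, Atp6ap1 and Grn. They are also given for members called in 1 direction in at least 4 of 9 adult deletions, and for called members with large changes in a comparison. For each of these genes levels are printed in some comparisons and not in all. Other members are named within counts and were picked after their values were seen. The members, gene lists and rules were chosen with earlier results of these data known. Promoters are RefSeq's, GRCm38.p6; 10 members had none in the table. C/EBPβ peaks were kept where both samples' peaks overlapped by at least 1 base.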

Additional observations from a re-analysis of the deposited data

Results flagged for a closer look

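In 16 of 247 groups of 4 or more libraries, over 19 genes, the highest or lowest library stood far from the rest; chance gives about 1 in 20. In CPM, with the range of the group's other libraries, these were for adult cells: Arsb in CD11b-high knockout (120 against 50.1 to 58.9), Sgsh in wild type of the CD11b-sorted set (0.663 against 0), Atp6v0a1 (106 against 86.0 to 87.9) and Gaa (102 against 95.3 to 95.9) in CD11b-high Lip cells, and in the CD11c-Cre knockout Atp6v1b2 (271 against 253 to 255), Atp6v1e1 (346 against 231 to 245) and Galns (79.3 against 54.5 to 57.7). In the chimeras they were Cebpb (36.8 against 18 to 18.6) and Neu1 (105 against 115 to 117) in 5-week knockout cells and Lamp1 in 10-week wild-type cells (1830 against 1410 to 1480). In E18 Csf2rb wild type they were Arsb (26.7 against 37.1 to 39.2), Ppt1 (69.1 against 168 to 188) and Sgsh (9.08 against 16.9 to 18). In Ly6Chi knockout monocytes they were Neu1 (90.0 against 124 to 130), Npc2 (1710 against 1490 to 1520) and Sgsh (17.8 against 11.2 to 12.1).

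By an edgeR interaction term, the knockout effect differed between facility 2 and facility 1, in log2 units with adjusted p, for Arsb (-1.51, adjusted p = 0.00454), Glb1 (1.51, adjusted p = 0.00497), Pla2g15 (-1.43, adjusted p = 0.0152), Gla (0.996, adjusted p = 0.034), Grn (0.957, adjusted p = 0.0452) and Atp6v1g1 (1.05, adjusted p = 0.047). Atp6v0e2 had a fitted difference of 11.4 (adjusted p = 0.01), which rests on libraries at 0 and is no bound.

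Between 10 and 5 weeks in the chimeras the effect differed for Sgsh (2.48, adjusted p = 0.00124), Lamp2 (1.13, adjusted p = 0.00226), Gla (1.09, adjusted p = 0.00296), Atp6ap2 (1.11, adjusted p = 0.00947), Atp6v1c1 (0.852, adjusted p = 0.00995), Hexa (0.875, adjusted p = 0.0139), Lamp1 (0.751, adjusted p = 0.0153), Atp6v0a1 (0.771, adjusted p = 0.02), Atp6v1a (0.79, adjusted p = 0.0248) and Gaa (0.725, adjusted p = 0.0407) on the higher side and for Atp6v0a2 (-0.934, adjusted p = 0.0177), Atp6v0e (-0.565, adjusted p = 0.0359) and Atp6v0d1 (-0.745, adjusted p = 0.0367) on the lower. The Cebpb and Csf2rb effects at E18 differed for Lipa (-1.1, adjusted p = 0.0227) and Sgsh (-2.03, adjusted p = 0.0232). The Cebpb knockout and Lip effects differed for Pla2g15 (-1.53, adjusted p = 0.00131), Ppt1 (-1.65, adjusted p = 0.00203), Neu1 (-1.36, adjusted p = 0.00516), Atp6v0d2 (-1.34, adjusted p = 0.00843) and Lipa (-1.08, adjusted p = 0.022).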

How the results depend on the processing

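No named member reversed direction among its calls under any alternative run. Of the named genes' results, 712 of those refitted with DESeq2 kept their side of the threshold, 10 lost it and 32 gained it; with RLE size factors these were 749, 2 and 3, without the low-count filter 739, 7 and 8, with replicate numbers as a block 683, 50 and 17, and with 1 library left out 5325, 311 and 94. DESeq2 called 2 members between CD11b-high and CD11b-low knockout cells, 1 in heterozygotes, 4 in the LyzM-Cre deletion, 2 in Ly6Chi monocytes, 7 for Lip in the chromatin-matched set (6 higher and 1 lower) and 4 (2 and 2) for the difference between Cebpb and Csf2rb loss; without the filter the LyzM-Cre count was 5.

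Replicate numbers as a block changed the counts to 10 in CD11b-high knockout, 0 between the knockout fractions, 15 at facility 2, 14 in males, 1 after Csf2rb loss, 0 for the facility difference and 0 for the Cebpb and Csf2rb difference. These libraries share only a number, and the cause was not tested; where the numbers paired libraries the values stand in the report. Crossed pairings, added after seeing the data because pairs correlated at -0.165 and -0.105, gave 14 calls at facility 1 and 5 with LyzM-Cre.

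With 1 library left out, counts ranged from 5 to 9 in CD11b-low knockout, 0 to 1 between the knockout fractions, 8 to 14 at facility 1, 0 to 1 in heterozygotes, 2 to 4 in males, 0 to 21 with LyzM-Cre, 4 to 13 after Csf2rb loss, 1 to 4 for Lip in the chromatin-matched set, 3 to 10 for the facility difference, 7 to 22 for the difference between weeks and 1 to 7 for the Cebpb and Csf2rb difference. Where a group kept 1 library it was assumed to vary like the others. In Ly6Chi monocytes the count was 0 without knockout replicates 2 and 3 together, an alternative chosen after seeing the data for their epithelial marker counts.

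A C/EBPβ peak within 2 kb was present at 35 of the 50 tested members (70%), beside 48.1% of all tested genes. Within 10 kb, a peak with a −log10 q of at least 10 was present at 31 (62%, beside 43.1%). One with overlap of at least 50% of the shorter peak was present within 10 kb at 37 (74%, beside 57.7%). Over all 56 members, tested or not, these counts were 36, 32 and 38. Genes near 3 counts, such as Sgsh and Atp6v0e2 in wild type, are limited by depth.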

Other observations

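Other lysosomal genes had calls in both directions in most comparisons. In a list of 47 other lysosomal enzymes and membrane proteins, 9 of 46 tested rose and 4 fell in CD11b-low knockout, beside 8.28% and 6.81% of all genes, and 13 and 4 of 46 in CD11b-high knockout, beside 12.2% and 11.8%. At facility 1 the counts were 17 and 5 of 47 (12.5% and 10.8% of all genes), at facility 2 they were 22 and 11 of 47 (24.9% and 22.7%) and in males 10 and 2 of 47 (7.12% and 3.76%). The chromatin-matched set had 16 and 5 of 47 (14.6% and 12.6%), the CD11c-Cre deletion 16 and 0 of 46 (10.3% and 6.48%) and the LyzM-Cre deletion 4 and 0 of 45 (2.96% and 1.72%). In the chimeras 3 rose and 8 fell of 47 at 5 weeks (12.1% and 10.5%), and 17 and 6 at 10 weeks (24.5% and 21.1%). In E18 Cebpb knockout macrophages 6 and 5 of 47 were called, beside 12.0% and 9.55%, which is close to the share over all genes.

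Of 19 genes for V-ATPase assembly and lysosomal ion transport, 4 of 18 tested rose and 0 fell in CD11b-low knockout (8.28% and 6.81% of all genes), 3 and 1 in CD11b-high knockout (12.2% and 11.8%), 7 and 3 at facility 2 (24.9% and 22.7%), 8 and 3 in the 10-week chimera (24.5% and 21.1%) and 5 and 3 in E18 Cebpb knockout (12.0% and 9.55% of all genes). Tcirg1, the a3 isoform of the V0 a subunit, rose in CD11b-low (0.78) and CD11b-high knockout (0.92), at facility 2 (1.34) and in the chromatin-matched set (1.14). Dmxl2, a subunit of the rabconnectin complex that assembles the pump, fell by 1.20 in CD11b-high knockout, 1.83 at facility 2, 1.70 in the chromatin-matched set, 2.42 in E18 Cebpb knockout and 1.93 and 1.45 in the 5-week and 10-week chimeras. It was low after Csf2rb loss at E18 as well, at 2.68, 0.632 and 14.55 CPM against 120, 81.9, 110 and 105 in wild type. Of 21 nutrient-sensing genes that act on TFEB, 3 of 20 rose and 1 fell in CD11b-high knockout (12.2% and 11.8% of all genes) and 9 and 2 in the 10-week chimera (24.5% and 21.1%). Of 24 autophagy genes, 3 of 22 rose and 1 fell in CD11b-high knockout (12.2% and 11.8% of all genes), and 5 and 5 of 23 at facility 2 (24.9% and 22.7%). The autophagy counts were thus near or below the share over all genes in both comparisons.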
